A study of Mus musculus with 6 samples.

Results

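The genes described here are Ido1 and its neighbours in the kynurenine pathway and the aryl hydrocarbon receptor (Ahr) response: Ido1, Afmid, Kmo, Kynu, Haao, Wars, Ahr and Ahrr. All probes assigned to these 8 genes were taken, which gave 17 of the 25697 probes in the deposited table, out of 18002 gene symbols. The table names the Ido1 probe by its older symbol Indo, so it was matched through its Entrez ID. The genes were picked with the difference between the groups already known, so their values are given as a description. Where the fit over all probes gives them an SE or a call, these describe the spread and are not read as a test.

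RNA of colon mucosa from 2 groups of untreated mice was hybridised to bead arrays in a single colour (Cy3), each sample on its own array. The wild type (WT) group held 3 samples from C57BL/6 mice bought from Taconic, and the knockout (miR-21 KO) group held 3 samples from miR-21-/- mice on a C57BL/6 background, which came from another laboratory and do not develop spontaneous colitis. Sex, age and the number of animals per sample are not given in the sources used here, nor are the replicates said to be separate animals, so the spread between samples may be partly technical. Genotype and source of the mice cannot be told apart in any difference below. The array holds 0 probes for the microRNA itself. RefSeq (GRCm38.p6) lists 2 mature microRNAs of the deleted gene, miR-21a-5p and miR-21a-3p. The 5p form is shown because the absence of miR-21 defines the KO group, with its seed (bases 2 to 8) in capitals.
mmu-miR-21a-5p (chr11:86584120-86584141, minus strand): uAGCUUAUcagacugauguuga

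Ido1 encodes indoleamine 2,3-dioxygenase, which opens the tryptophan ring in the rate-limiting step of the kynurenine pathway. Afmid, Kmo, Kynu and Haao carry the product on through kynurenine towards quinolinate and NAD. In the gut, Ido1 is made by epithelial cells and by antigen-presenting cells and is strongly induced by interferon gamma. Kynurenine and several indoles bind Ahr, a ligand-activated transcription factor that works with Arnt, and Ahrr is its feedback repressor. Wars, the cytosolic tryptophanyl-tRNA synthetase, uses the same amino acid and is itself induced by interferon gamma.

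Median intensity was 97 to 115 on the WT arrays and 98.3 to 109.3 on the KO arrays. A probe counts as detected where its detection p-value against the negative control beads is under 0.05, which held for 50.4 to 54.6 percent of them. Replicate 3 was the dimmest array in each group. Levels below are log2 intensities after background correction and quantile normalization, and undetected probes had a median level of 4.26 to 4.27. The number of arrays limits the precision. The 13737 probes that 3 or more arrays detected were tested, and a probe was called at an adjusted p under 0.05 in limma. Of these, 2071 were called (15.1 percent), 1034 higher (7.53 percent) and 1037 lower (7.55 percent) in KO. That count was 885, 2158 and 814 without WT replicate 1, 2 and 3, and 959, 491 and 1724 without KO replicate 1, 2 and 3. With median scaling 193 were higher and 343 lower, so that 36.0 percent of the calls were higher in place of 49.9 percent. The words rose and fell refer to calls, KO against WT.

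The mucosa label was checked against epithelial markers. Krt8, Krt20, Vil1 and Cdh1 were detected on all 6 arrays and Slc26a3 on 2 of 3 arrays in each group, while Epcam, Car1 and Muc2 had no probe. The summed linear level of the 5 epithelial markers was 24290 to 25797 in WT and 21107 to 23933 in KO, and 2 of the 5 fell, Krt20 by 1.55-fold and Vil1 by 2.21-fold. Markers of smooth muscle and fat were detected as well, and 1 of 6 and 5 of 5 tested ones rose, as did 4 of 5 endothelial markers. At an unadjusted p under 0.05 in limma all 6 smooth muscle markers were higher in KO, with a median log2 difference of 0.75. The summed level of 6 smooth muscle markers ran from 19364 to 37014 in WT and from 34806 to 48508 in KO, and that of 5 adipocyte markers from 127 to 2834 and from 5703 to 17930.

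Ido1 showed the widest gap between the groups among the 8 genes. In the 3 WT samples, taken in replicate order, its probe had a raw intensity of 1198, 567.4 and 1485, with bead standard errors of 48.0, 24.4 and 57.2. In the KO samples it read 138.6, 143.5 and 185.5, with bead standard errors of 4.39, 4.18 and 7.44. The spread between samples of a group was therefore several times the error over beads within an array, and the probe was detected on all 6 arrays. After normalization the log2 levels were 9.98, 8.56 and 10.90 in WT and 5.62, 5.76 and 7.18 in KO. All KO arrays lay below all WT arrays, with 1.38 log2 units between the lowest WT array (replicate 2) and the highest KO array (replicate 3). The group means were 9.82 ± 1.18 (SD, n = 3) and 6.19 ± 0.86 (SD, n = 3), a log2 difference of -3.63 ± 0.57 (SE), or 12.4-fold. Levels also ranged over 2.34 log2 units within WT and 1.56 within KO. Leaving out WT replicate 2 gave 18.7-fold, leaving out KO replicate 3 gave 17.7-fold and leaving out WT replicate 3 gave 8.51-fold, and the fold was 6.23 with no background correction.

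**Figure D1:**
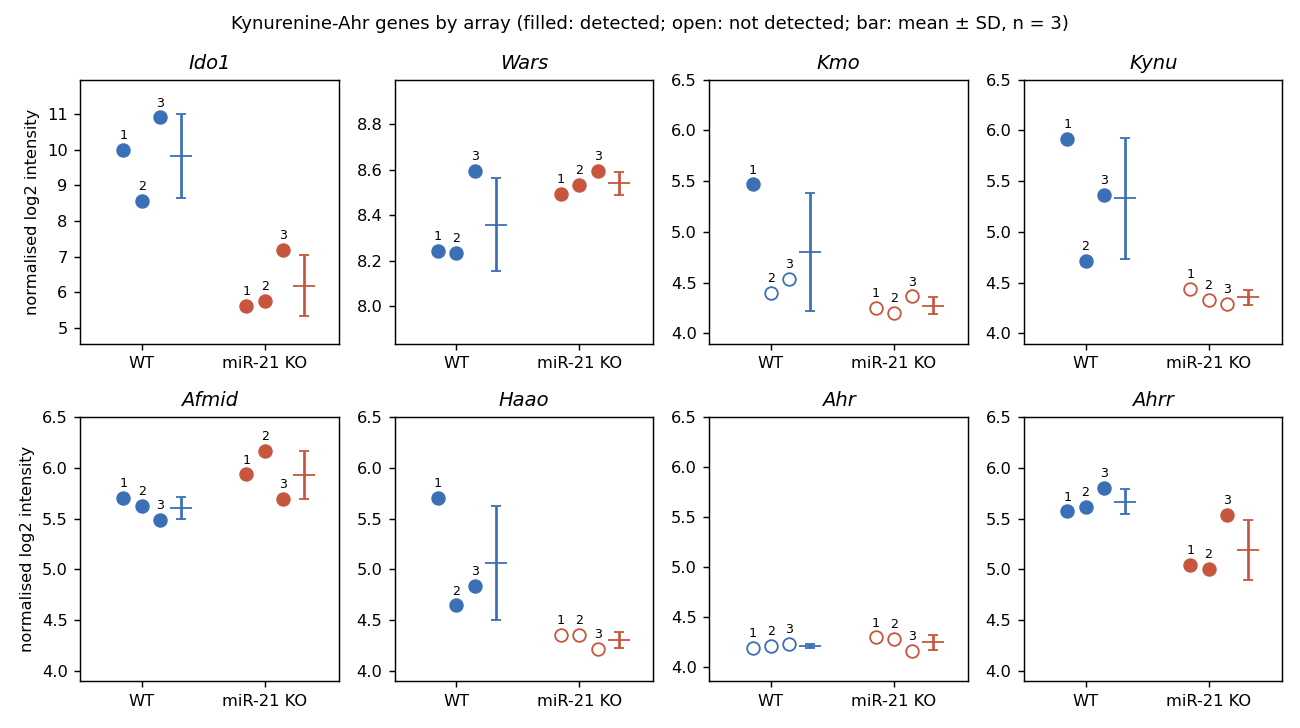
Normalised log2 intensity (y axis) of the brightest probe of each of the 8 genes in WT (blue) and miR-21 KO (red) samples, 1 point per array numbered by replicate, with the mean ± SD (n = 3) beside the points. Open points were not detected. Ido1 and Wars have axes of their own, the other panels run over about the same range, and Ido1 has a mean of 9.82 in WT and 6.19 in KO while Ahr is undetected on every array.

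Afmid, the formamidase that turns the product of Ido1 into kynurenine, did not share that pattern. Of its 7 probes, 2 were detected on all 6 arrays. The brighter (ILMN_2827607) read 5.70, 5.62 and 5.48 in WT and 5.94, 6.16 and 5.69 in KO, a log2 difference of 0.33 ± 0.16 (SE). The other (ILMN_2600443) read 5.42, 5.53 and 5.72 in WT and 5.96, 5.68 and 5.29 in KO, a difference of 0.09 ± 0.19 (SE). The groups overlapped on both, since KO replicate 3 lay within or below the WT range. Probe ILMN_2626209 was detected on all KO arrays and on 0 of 3 WT arrays, at least 1.06-fold higher in KO. The remaining 4 probes, each detected on 1 to 4 arrays, had log2 differences from 0.05 to 0.24.

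The downstream enzymes were dim in WT and at background in KO. Kynu, which splits kynurenine and 3-hydroxykynurenine, read 5.91, 4.71 and 5.36 on the WT arrays, all detected, and 4.44, 4.33 and 4.29 on the KO arrays, none detected. Its level was at least 1.74-fold lower in KO, and the measured means were 5.33 ± 0.60 and 4.35 ± 0.08 (SD, n = 3). WT replicate 2 was the WT array nearest to background, as for Ido1. Haao, which opens the ring of 3-hydroxyanthranilate, read 5.71, 4.64 and 4.84 in WT (3 of 3 detected) and 4.35, 4.36 and 4.21 in KO (0 of 3), at least 1.45-fold lower. WT replicate 1 was the highest array, and the log2 difference of -0.76 went to -0.43 without that array.

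Kmo, the monooxygenase between the Afmid and Kynu steps, was detected on WT replicate 1 alone. It read 5.47, 4.40 and 4.54 in WT and 4.25, 4.21 and 4.37 in KO, at least 1.21-fold lower in KO. That bound rests on WT replicate 1, since the log2 difference of -0.53 went to -0.19 without it. WT replicate 1 was thus the highest array for Kynu, Haao and Kmo, while WT replicate 3 was the highest for Ido1.

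The RefSeq promoter table (GRCm38.p6) matched 4 of the 8 genes: Kmo, Afmid, Haao and Ahrr. Their 250 bases before the start were searched on both strands for the Ahr-Arnt core GCGTG, the gamma-activated site TTCNNNGAA and the interferon-stimulated response element core (GAAA, 2 bases of any kind, GAAA). These were found in 28.2, 7.02 and 2.98 percent of all 32851 promoters of that length. Kmo and Afmid held no match to any of them. Haao held 1 GCGTG and Ahrr held 3, a number that 2.77 percent of all promoters reach or pass. The Ahrr and Haao stretches are shown 5′ to 3′ for those matches, which are in capitals. A match is a description of the letters and not a site shown to be used.
Ahrr (chr13:74292332-74292581, minus strand): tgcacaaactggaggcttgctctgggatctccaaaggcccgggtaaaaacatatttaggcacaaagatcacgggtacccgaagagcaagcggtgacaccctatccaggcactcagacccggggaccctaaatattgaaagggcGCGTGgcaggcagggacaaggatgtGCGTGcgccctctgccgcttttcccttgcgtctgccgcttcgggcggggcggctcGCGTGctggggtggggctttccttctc
Haao (chr17:83846791-83847040, minus strand): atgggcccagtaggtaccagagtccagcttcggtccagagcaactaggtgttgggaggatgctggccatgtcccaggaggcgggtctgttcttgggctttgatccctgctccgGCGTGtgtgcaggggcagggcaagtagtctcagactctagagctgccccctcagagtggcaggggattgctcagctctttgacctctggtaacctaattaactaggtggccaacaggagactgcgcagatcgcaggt

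Ahr itself could not be followed. Its probe had levels of 4.19 to 4.23 in WT and 4.16 to 4.30 in KO, and 0 of 6 arrays detected it. Ahrr, the repressor whose promoter is shown above, was detected on all 6 arrays. It read 5.57, 5.62 and 5.80 in WT and 5.04, 5.01 and 5.54 in KO. The KO arrays lay below the WT arrays but KO replicate 3 was close under WT replicate 1. The log2 difference was -0.47 ± 0.17 (SE), 1.38-fold.

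Wars had 4 probes, and none separated the groups. The brightest (ILMN_1254157) read 8.24, 8.24 and 8.60 in WT and 8.49, 8.53 and 8.59 in KO, a log2 difference of 0.18 ± 0.15 (SE). The other probes differed by -0.04 to 0.05, with 2 of them detected on 4 or 5 of the 6 arrays. On the brightest probe WT replicate 3 was level with the highest KO array.

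Counted over probes, 12 of the 17 were detected on enough arrays to be tested, from 6 of the 8 genes. Of the 12, the Ido1 and Kynu probes were called, both lower, against 7.55 percent of all tested probes called lower, 7.53 percent called higher and 15.1 percent called in either direction, and nothing is read from that share since the genes were chosen on this contrast. In 10 of 16 alternatives Ido1 alone was called, and the count ran from 1 to 5 over all of them. Of the 12, the Kynu and Haao probes passed the filter through the WT arrays alone and 1 Afmid probe through the KO arrays alone, so they had to differ. All KO arrays lay below all WT arrays for 4 of the 12 (Ido1, Kynu, Haao and Ahrr), where 17.0 percent of all tested probes did so. They lay above for 1, an Afmid probe, where 19.4 percent of all tested probes did. For the same reasons nothing is read from these counts either. The groups did not overlap for 36.4 percent of all tested probes.

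The other genes of the pathway were described from 10 lists of 107 genes that exclude those above. Of 72 genes that could be tested, 8 rose and 16 fell, 33.3 percent against 15.7 percent of all 10380 tested genes (8.05 percent higher and 7.62 percent lower). The median log2 difference over the 72 was 0.00, and 0.03 over all tested genes. Earlier results of these data were known when the lists were made, and several interferon genes in them were known to be lower, so the counts are no independent evidence of a direction. With median scaling 0 rose and 10 fell in limma, against 6 and 18 at an unadjusted p under 0.05. Without WT replicate 1, 2 and 3 the counts were 2, 5 and 1 higher and 7, 16 and 5 lower, and without KO replicate 1, 2 and 3 they were 1, 0 and 4 higher and 6, 4 and 10 lower. Without KO replicate 2, where 0 were higher, 12 were higher at an unadjusted p under 0.05. Of the 24 called genes 2, Cd274 among them, were called in every alternative, and the other 22 lost the call in 1 to 11 of them.

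**Figure D2:**
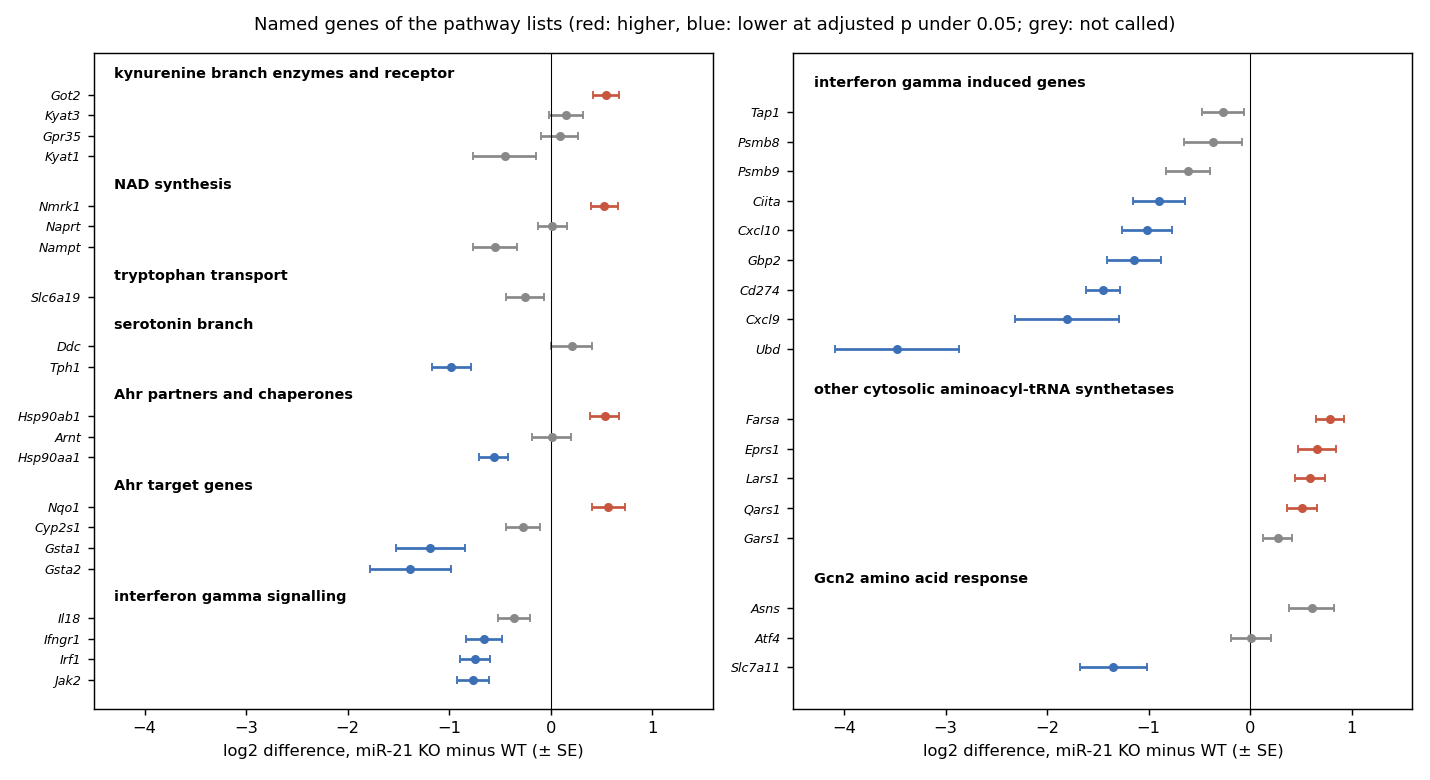
Log2 difference, miR-21 KO minus WT (x axis, ± SE from limma, 3 arrays per group), of 38 tested genes named in the text, grouped by list. Red genes rose and blue genes fell at an adjusted p under 0.05, and grey genes were not called. The interferon gamma induced genes all lie left of 0, from -0.27 for Tap1 to -3.48 for Ubd.

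In the list of kynurenine branch enzymes and receptor, Got2, a mitochondrial aminotransferase that can also make kynurenic acid, rose 1.46-fold (log2 difference 0.55 ± 0.13 (SE), adjusted p = 0.0255), the only call among 4 tested genes. Its levels were 10.01, 10.09 and 10.08 in WT and 10.54, 10.69 and 10.59 in KO, with no overlap. The kynurenine aminotransferases Kyat1 (-0.45 ± 0.31, adjusted p = 0.350) and Kyat3 (0.15 ± 0.16, adjusted p = 0.563) were not called, and WT replicate 3 stood above the other arrays for Kyat1 at 11.11. Gpr35, a receptor for kynurenic acid, had a difference of 0.09 ± 0.18 (adjusted p = 0.765). Ido2 and Tdo2, the other enzymes that open the tryptophan ring, and the aminotransferase Aadat were detected on 0 of 6 arrays.

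For NAD synthesis, Qprt, which takes up the end product of the kynurenine route, was detected on 0 of 6 arrays. Nmrk1, a nicotinamide riboside kinase, rose 1.44-fold (0.53 ± 0.14, adjusted p = 0.0326) as the only call among 4 tested genes. Nampt, the main salvage enzyme, read 7.20, 7.05 and 7.46 in WT and 6.30, 6.63 and 7.13 in KO on its main probe and was not called (-0.55 ± 0.22, adjusted p = 0.114). Its other tested probe, found on 1 of 3 KO arrays, was lower, with a log2 difference of -0.81 and an adjusted p of 0.0177. Naprt, which starts NAD synthesis from nicotinic acid, had a difference of 0.02 ± 0.15 (adjusted p = 0.949).

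Among genes of tryptophan transport 4 could be tested. Slc6a19, the neutral amino acid transporter of the gut surface, was near background, seen on 2 WT arrays and 1 KO array (-0.25 ± 0.19, adjusted p = 0.387). Slc7a5 had no probe.

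In the serotonin branch, which competes for tryptophan, Tph1 fell 1.97-fold (-0.98 ± 0.19, adjusted p = 0.0144). Tph1 is the tryptophan hydroxylase of enterochromaffin cells, and its levels were 6.34, 6.44 and 6.94 in WT and 5.41, 5.56 and 5.82 in KO, with no overlap. It was the only call among 4 tested genes, and it was lost in 1 of 16 alternatives. Ddc, the decarboxylase of the next step, had a difference of 0.21 ± 0.20 (adjusted p = 0.509).

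Partners and targets of Ahr moved in both directions. Arnt, its dimer partner, had a difference of 0.01 ± 0.19 (adjusted p = 0.979). Hsp90ab1 rose 1.45-fold on its main probe (0.53 ± 0.14, adjusted p = 0.0335) but its other 2 probes were not called, and Hsp90aa1 fell 1.47-fold (-0.56 ± 0.14, adjusted p = 0.0317). They were the 2 calls among 5 tested partners and chaperones.

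The classical Ahr targets Cyp1a1 and Cyp1a2 and the Ahr-dependent cytokine Il22 were detected on 0 of 6 arrays, and Cyp1b1 and Tiparp on 1 each. Of 7 targets that could be tested 1 rose and 2 fell, with a median log2 difference of -0.20. Nqo1, a quinone reductase that also answers to oxidant stress, rose 1.48-fold (0.57 ± 0.16, adjusted p = 0.0455), from 6.70, 6.50 and 6.27 in WT to 7.02, 7.24 and 6.91 in KO. The glutathione transferase gene Gsta1 fell 2.27-fold (-1.18 ± 0.34, adjusted p = 0.0469) and Gsta2 fell 2.61-fold (-1.38 ± 0.40, adjusted p = 0.0463). They are close paralogs whose probes may share signal, so they are not counted as independent. Gsta2 read 8.07, 7.76 and 9.53 in WT and 6.83, 6.96 and 7.43 in KO, with WT replicate 3 the highest as for Ido1. Cyp2s1 was not called (-0.27 ± 0.17, adjusted p = 0.297). The call of Nqo1 was lost in 10 of 16 alternatives and those of Gsta1 and Gsta2 in 8 each.

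Some genes of the interferon gamma route, the main known inducer of Ido1, were lower. Ifng was detected on 0 of 6 arrays. Of 10 tested signalling genes 3 fell, the receptor chain Ifngr1 by 1.57-fold (-0.66 ± 0.17, adjusted p = 0.0364), the kinase Jak2 by 1.69-fold (-0.76 ± 0.16, adjusted p = 0.0168) and the transcription factor Irf1 by 1.68-fold (-0.75 ± 0.15, adjusted p = 0.0147). The list's median log2 difference was -0.33, and 7 of the 10 lay below 0. Irf1 read 12.30, 12.17 and 12.33 in WT and 11.63, 11.63 and 11.30 in KO, and all 5 of its probes were called lower. WT replicate 2, the WT array with the lowest Ido1, was also the lowest WT array on each Irf1 probe. In KO the order differed, since replicate 3, with the highest Ido1 in KO, was the lowest KO array on each Irf1 probe. The main Jak2 probe read 9.56, 9.79 and 9.32 in WT, highest on replicate 2. Both tested Jak2 probes fell. The cytokine gene Il18 was not called (-0.36 ± 0.16, adjusted p = 0.154). Socs1, a feedback inhibitor, was detected on 2 of 6 arrays. The call of Ifngr1 was lost in 10 of 16 alternatives.

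Genes that interferon gamma induces together with Ido1 were lower on every tested member, with a median log2 difference of -1.01, and 6 of 9 fell. Ubd, a ubiquitin-like modifier, read 9.91, 7.21 and 9.62 in WT and 5.47, 4.91 and 5.92 in KO, a log2 difference of -3.48 ± 0.61 (adjusted p = 0.0103). Cd274, the checkpoint ligand PD-L1, read 7.997, 7.74 and 8.22 in WT and 6.41, 6.46 and 6.73 in KO, 2.73-fold lower (-1.45 ± 0.17, adjusted p = 0.00197). It kept its call in all 16 alternatives. The chemokine gene Cxcl9 fell 3.49-fold (-1.80 ± 0.51, adjusted p = 0.0447) and the chemokine gene Cxcl10 fell 2.02-fold (-1.01 ± 0.25, adjusted p = 0.0280). The guanylate-binding protein gene Gbp2 (-1.14 ± 0.27, adjusted p = 0.0244) and the class II transactivator Ciita (-0.90 ± 0.25, adjusted p = 0.0445) complete the 6. A second tested Gbp2 probe was not called (-1.24, adjusted p = 0.0865). Psmb8, Psmb9 and Tap1, of antigen processing, were not called, at -0.37, -0.61 and -0.27. The count of 6 was 2, 8 and 2 without WT replicate 1, 2 and 3 and 2, 2 and 3 without KO replicate 1, 2 and 3. The call was lost in 10 of 16 alternatives for Ciita and in 9 for Cxcl9 and Cxcl10.

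Promoter stretches of Gbp2 and Cxcl10 are shown because they hold the interferon-stimulated core. Of the 9 interferon genes that fell, 8 had a promoter in the table, and 2 of the 8 hold that core while 6 do not. Kmo, Afmid, Haao and Ahrr also lack it. The gamma-activated site was found in 1 of the 8, Irf1. Capitals mark the core, as its reverse complement in Gbp2 and on the printed strand in Cxcl10, and in Cxcl10 also the reverse complement of GCGTG.
Gbp2 (chr3:142620413-142620662, plus strand): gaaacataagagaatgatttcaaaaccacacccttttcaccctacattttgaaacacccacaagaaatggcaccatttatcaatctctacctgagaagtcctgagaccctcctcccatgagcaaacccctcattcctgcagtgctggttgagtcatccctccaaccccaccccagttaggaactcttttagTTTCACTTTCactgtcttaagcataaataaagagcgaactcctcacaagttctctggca
Cxcl10 (chr5:92348890-92349139, minus strand): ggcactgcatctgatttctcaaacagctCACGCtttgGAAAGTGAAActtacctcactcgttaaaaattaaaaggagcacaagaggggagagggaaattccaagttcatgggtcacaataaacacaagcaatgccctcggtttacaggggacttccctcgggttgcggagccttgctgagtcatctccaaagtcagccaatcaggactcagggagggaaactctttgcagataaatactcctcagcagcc

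**Figure D3:**
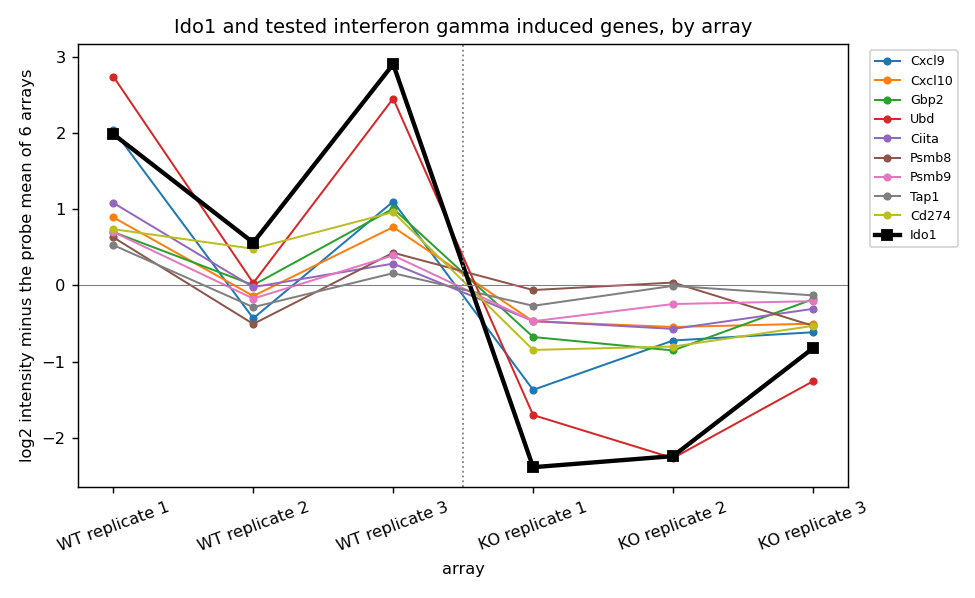
Log2 intensity minus the probe's mean over 6 arrays (y axis) for Ido1 (black squares) and the 9 tested interferon gamma induced genes (coloured points), on each array (x axis). Each line joins the values of 1 gene and the replicates have no order. Ido1 and Ubd span the widest range, and for Psmb8 and Tap1 WT replicate 2 lies below KO replicates 1 and 2.

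On WT replicate 2, the WT array with the lowest Ido1, the interferon gamma induced genes were also closest to the KO level. Their mean, each gene centred on its 6-array mean, was 1.12, -0.12 and 0.84 in WT and -0.70, -0.66 and -0.47 in KO, in replicate order. Markers of B cells and of T and NK cells were likewise lowest in WT on replicate 2. They were highest on WT replicate 1, while Ido1 was highest on WT replicate 3. By the same measure B cell markers (3 tested of 6) read 2.30, 0.10 and 1.07 in WT and -1.25, -1.22 and -0.9997 in KO, and all 3 fell. T and NK cell markers (5 tested of 9) read 1.09, 0.12 and 0.60 in WT and -0.74, -0.81 and -0.26 in KO, and 4 of the 5 fell. Cd8a, Gzmb and Ncr1 were detected on 0 of 6 arrays.

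Macrophage and monocyte markers (7 tested of 8) read 0.16, 0.04 and 0.31 in WT and -0.36, -0.23 and 0.08 in KO, where 1 of 7, Mrc1, fell. At an unadjusted p under 0.05 in limma 3 of the 7 were lower and 1 was higher. The dimmer of 2 tested Adgre1 probes was called, while the main probe was not. KO replicate 3, the KO array with the highest Ido1, lay above WT replicate 2 by this list. Among 8 dendritic cell markers Itgax, Flt3, Zbtb46, Xcr1, Clec9a and Cd209a were detected on 0 of 6 arrays, and Batf3 and Ccr7 were not called in limma, with Ccr7 at an unadjusted p of 0.0387. Of the markers of type 3 innate lymphoid cells, which depend on Ahr, Il22, Il23r and Il17a were detected on 0 of 6 arrays.

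In linear units the summed levels were 375 to 2420 in WT and 141 to 200 in KO for B cells, and 365 to 825 and 172 to 252 for T and NK cells. They were 4334 to 9473 and 2801 to 4262 for macrophages and monocytes, and 54.2 to 69.3 and 42.3 to 58.9 for dendritic cells. The macrophage sum depends most on its brightest marker, Lyz2, at 12.94, 11.26 and 12.32 log2 units in WT and 10.63, 10.74 and 11.35 in KO. Lyz2 overlapped between the groups and was not called (adjusted p = 0.0503 in limma). In such bulk samples fewer cells of a type and less RNA per cell cannot be told apart, and the part of these cells, or of the fat and muscle RNA, in the Ido1 difference was not tested.

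**Figure D4:**
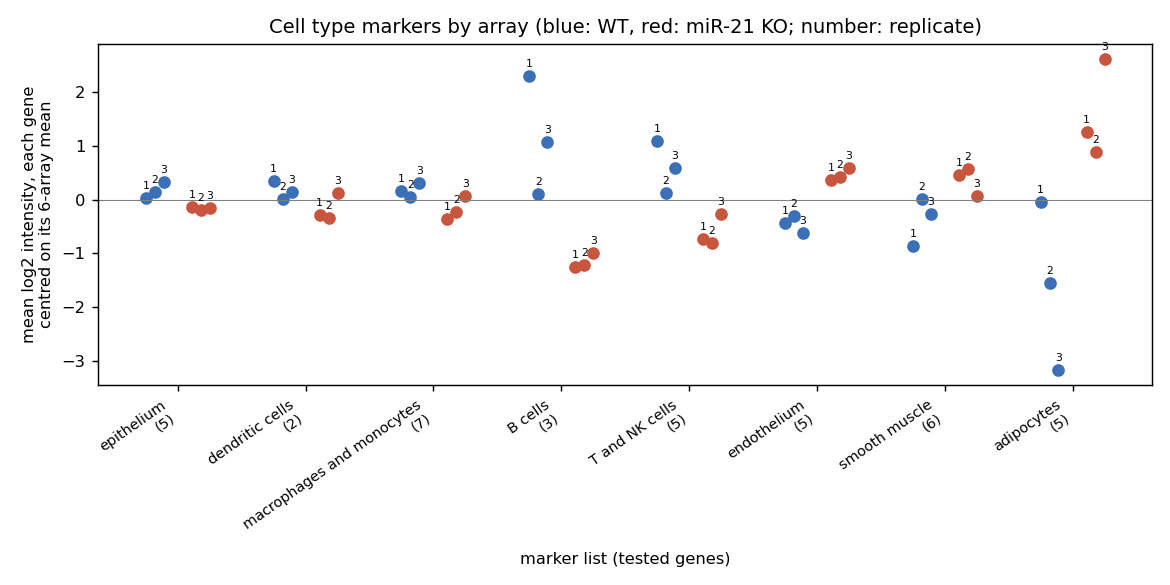
Mean log2 intensity of the tested markers of each cell type, each gene centred on its mean over 6 arrays (y axis), by marker list with the number of tested genes (x axis), for lists with more than 1 tested gene. Each point is 1 array, WT in blue and miR-21 KO in red, numbered by replicate. B cell markers range from 2.30 on WT replicate 1 to -1.25 on KO replicate 1, and adipocyte markers run the other way, from -3.16 on WT replicate 3 to 2.61 on KO replicate 3.

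Wars was set beside the other cytosolic aminoacyl-tRNA synthetases. Of 17 tested, 4 rose and 1 fell, with a median log2 difference of 0.14, next to 0.18 on the brightest Wars probe. Farsa (0.79 ± 0.14, adjusted p = 0.0101), Eprs1 (0.66 ± 0.19, adjusted p = 0.0474), Lars1 (0.59 ± 0.14, adjusted p = 0.0279) and Qars1 (0.51 ± 0.15, adjusted p = 0.0461) rose. The charged amino acid differs: these enzymes serve phenylalanine, glutamate and proline, leucine, and glutamine. Gars1 was not called (0.27 ± 0.14, adjusted p = 0.218). The call was lost in 11 of 17 alternatives for Eprs1 and in 10 of 16 for Qars1.

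The Gcn2 kinase senses uncharged tRNA when an amino acid such as tryptophan runs short and raises Atf4. Its gene Eif2ak4 was detected on 0 of 6 arrays. Of 8 tested genes of this response 1 was called, the cystine transporter Slc7a11, which fell 2.54-fold (-1.35 ± 0.33, adjusted p = 0.0287) with 2 of 3 KO arrays detecting it. Its WT levels were 6.79, 5.23 and 6.08, again lowest on WT replicate 2. Atf4 had a difference of 0.01 ± 0.20 (adjusted p = 0.984), and Asns, an Atf4 target that makes asparagine, 0.61 ± 0.22 (adjusted p = 0.0914).

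Likeness to Ido1 was described over the 6 arrays with Pearson's r against 10379 other tested genes. All points share the group difference, and 183 genes had an r above 0.95. The closest were Clec4b1 (r = 0.995), Ppp2r3c (0.991), Med6 (0.990), the interferon-induced GTPase gene Irgm2 (0.989) and Pilrb1 (0.988). Clec4b1 read 6.26, 5.87 and 6.38 in WT and 5.27, 5.31 and 5.69 in KO, so its range was far smaller than that of Ido1. Each gene was also centred on its group means, which removes the group difference. Cfb, a complement gene, was then the closest of 1933 genes with a within-group SD of at least 0.3 log2 units (r = 0.999). Its r before centring was 0.902. Cfb was followed by Ifi27l2b (0.993), Il18r1 (0.992), Dsn1 (0.988) and Gcg (0.986). Few independent values remain after centring and these genes are the highest of many, so nothing is concluded from their r. Gcg, the proglucagon gene, was higher in KO (1.08 ± 0.22, adjusted p = 0.0154), the opposite of Ido1 between the groups. Of the other member genes that were tested, Ahrr had an r of 0.907 over the 6 arrays and Kynu 0.850, Haao 0.726, Wars -0.283 and Afmid -0.846, each by its brightest probe.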

How the data were processed

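Per the file headers, the authors deposited for each probe and array the average bead intensity, linear and not normalized between arrays, with its detection p-value, and also the standard error over beads and how many beads there were. The last 2, other units in the deposited table, served only to describe arrays and probes. A second table that the authors deposited holds log2 values normalized between arrays for 18010 probes. It correlated with the values computed here at r of at least 0.9999 after rounding on each array, which settles its scale and direction but not how its probes were chosen. The submitters' processing notes list limma without a role or version and do not say what read the arrays.

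Intensities were processed with neqc in limma 3.58.1 (R 4.3.3): normexp background correction, for which the negative control moments came from the detection p-values, then an offset of 16, quantile normalization and log2. lmFit and eBayes were run without covariates on all 6 arrays, two-sided, with Benjamini-Hochberg adjustment over 13737 probes. The script was tested on simulated data. Permuting 3 against 3 cannot give a p below 0.1, and calls therefore come from limma alone. SD is over arrays of a group and SE is from the limma fit.

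Symbols were updated by Entrez ID for 23788 probes and by RefSeq accession for 685. A gene of a list is represented by its tested probe with the highest mean. Where no array of a group detected a probe, the fold is a bound ("at least"), computed against, on each array, the higher of the probe's own level and the lowest level among detected probes. The genes named were all 8 members, every called gene and the brightest gene of each list, a fixed set of pathway genes, and the 5 genes most like Ido1 by each measure, except that some of these genes are not reported here. Members and lists were chosen with earlier results of these data known. The files name no genome build. Promoters and the microRNA come from RefSeq tables of GRCm38.p6. Alternatives were median scaling, cyclic loess, no background correction, an offset of 50, other filters, array weights, a replicate block, the deposited log2 values, other probe rules, each array left out, and, added after the data were seen, both replicate 3 arrays left out.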

Additional observations from a re-analysis of the deposited data

How the results depend on the processing

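The Ido1 difference kept its sign and stayed within 1 within-group SD of its value in all 16 alternatives, from -4.22 to -2.64. Wars did so on its brightest probe. These are plain differences of group means, so other filters, array weights and a replicate block could not move them. With no background correction the log2 differences shrank to -0.30 for Kynu, -0.24 for Haao, -0.16 for Ahrr and 0.13 for Afmid, and with an offset of 50 to -0.47 for Kynu and -0.34 for Haao. Leaving out single arrays gave -4.22 to -3.09 for Ido1, -1.25 to -0.68 for Kynu, -0.94 to -0.43 for Haao, -0.65 to -0.37 for Ahrr, 0.12 to 0.30 for Wars and 0.21 to 0.45 for Afmid. It gave 491 to 2158 probes called in all, 0 to 5 pathway genes higher, 4 to 16 lower and 2 to 8 interferon gamma induced genes lower. Probes called numbered 536 with median scaling, 3772 with array weights and 510 without both replicate 3 arrays. Pathway genes higher numbered 0 with median scaling (6 at an unadjusted p under 0.05), 5 with cyclic loess, 5 with no filter on dim probes and 1 without both replicate 3 arrays. Pathway genes lower numbered 10 with median scaling, 8 with no background correction, 10 with an offset of 50, 7 with no filter and 5 without both replicate 3 arrays. Interferon gamma induced genes lower numbered 3 with no background correction, 1 with no filter and 1 without both replicate 3 arrays. The cause of these shifts was not tested.

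Of the genes followed through the alternatives, the sign turned only for some that were not called. Afmid ranged from -0.0713 to 0.36 on ILMN_2600443 and from -0.0191 to 0.17 on ILMN_2702893. The dimmer Wars probes crossed 0 as well, with ILMN_2445477 from -0.19 to 0.25. Ahr, undetected throughout, ranged from -0.0039 to 0.0993. Atf4 turned to -0.11 with median scaling, -0.0230 with cyclic loess, -0.12 with array weights, -0.21 without both replicate 3 arrays and -0.12 as a mean of its probes, and ranged from -0.19 to 0.14 with single arrays left out. Naprt turned to -0.0751 with median scaling and -0.0222 with cyclic loess, and ranged from -0.0774 to 0.11 with single arrays left out. Arnt turned to -0.0844 with array weights, and ranged from -0.18 to 0.16 with single arrays left out. Kyat3 turned to -0.039 with array weights and Kyat1 to 0.053 without both replicate 3 arrays. Gpr35 turned to -0.0909 without both replicate 3 arrays, and ranged from -0.11 to 0.23 with single arrays left out.

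The replicate numbers shared by the groups are not said to mark pairs. Deviations from the group means of same-numbered samples correlated at 0.00686, 0.155 and 0.0558. Those of differently numbered samples correlated at -0.125 to 0.0781. With 3 arrays per group these values cannot decide whether the numbers mark pairs. A replicate block gave 2154 probes called in place of 2071. Dim probes limit the downstream enzymes, since Kmo, Kynu and Haao lay at background in KO.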
